A study of Mus musculus with 6 samples.

Results

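The complement genes described here were 9 of 31054 counted features: C1qa, C1qb and C1qc, C2, C4b, C3, Cfb, C7 and Serping1. They were taken by gene symbol from single-cell RNA sequencing of the lungs of 6 male C57BL/6 mice aged 21 months. With 1 mouse per library, 3 were p16-DTR by label (genotype p16-CreERT2/R26-LSL-DTR) and 3 were controls (genotype p16-CreERT2). Both groups received tamoxifen for 5 days, then, 2 weeks later, diphtheria toxin for 5 days, and were killed after 2 weeks of recovery. In this design Cre is driven by the promoter of p16 (Cdkn2a), so that tamoxifen lets cells that use this promoter make the diphtheria toxin receptor (DTR), and toxin then kills cells that carry it. Each library mixed 20000 sorted CD45-negative with 9000 CD45-positive cells, so the shares of immune and non-immune cells were set by the sort.

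Complement is a cascade of plasma and tissue proteins that marks targets for removal. C1q, built from the chains encoded by C1qa, C1qb and C1qc, recognises its targets and starts the classical pathway, in which C4b and C2 form the enzyme that cleaves C3. Cfb (factor B) gives the corresponding enzyme of the alternative pathway, C7 belongs to the terminal complex that inserts into membranes, and Serping1 encodes the C1 inhibitor. Tissue macrophages are a known source of C1q, and fibroblasts and mesothelial cells are known to make several of the other components.

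The libraries held 13482 to 17332 barcodes and 254200305 to 344421685 unique molecular identifiers (UMIs, each counting 1 captured RNA molecule), and 12323 to 15713 cells were retained per library. Clusters were named from marker genes that include no complement gene, and classes defining lung were present, among them 904 alveolar type 2 and 2226 venous endothelial cells. Pairs of libraries shared 59 to 94 barcodes. Levels are given as UPM, the UMIs of a gene per 1000000 UMIs of the cells named. Cdkn2a, the gene whose cells the toxin was meant to remove, was higher in the group where that loss was meant to occur. Over all retained cells it stood at 6.90, 8.50 and 7.22 UPM in the p16-DTR-labelled libraries (replicates 1, 2 and 3, the order used throughout). The controls held 1.20, 2.60 and 2.82, and the labels are used as given. A tdTomato sequence among the features gave 78, 63 and 84 UMIs in the p16-DTR-labelled libraries and 0 in each control, where a count of 0 allows up to 0.00987 to 0.0131 UPM. Control replicate 1 stood apart in its cell make-up, with 6318 fibroblasts against 2689 to 4021 in the other 5 libraries.

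UMIs were counted from the 3′ end of each molecule, so they were not divided by gene length, and no level is compared between genes other than as a ratio of UMIs among the 3 C1q chains. All 9 genes lie on the minus strand of GRCm38. C1qa (chr4:136895917-136898803), C1qc (chr4:136889804-136893065) and C1qb (chr4:136880129-136886187) sit side by side. C4b (chr17:34728380-34743882), Cfb (chr17:34856374-34862518) and C2 (chr17:34862604-34898265) lie in the major histocompatibility complex, and C3 (chr17:57203970-57228136) is on the same chromosome. C7 is at chr15:4988762-5063740 and Serping1 at chr2:84765387-84775444. The readthrough gene Gm20547 shares 79.5% of the exon bases of Cfb and 42.8% of those of C2 and was counted with 4 UMIs, so reads from the shared exons may have been left out or split and the levels of Cfb and C2 are uncertain. C4b has a near-identical paralog, C4a, which was not analysed here, and reads common to both could have been lost or counted for C4b.

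The RefSeq promoter table (GRCm38.p6) matched 4 of the 9 genes, and bases just before their starts are shown because the members fell into a macrophage group (C1qb, C1qc) and a stromal group (C3, C7). For C1qc, the 151 bases before its RefSeq start lie inside the GENCODE gene and were left out. Distances are counted from the RefSeq start. Capitals mark matches, on either strand, to TATAAA (the TATA box), GAGGAA (the core bound by PU.1), TTNNGNAA (C/EBP), a kappaB motif (GGG, any 5 bases, CC) or TTCNNNGAA (STAT).
C1qb (chr4:136886201-136886320, minus strand): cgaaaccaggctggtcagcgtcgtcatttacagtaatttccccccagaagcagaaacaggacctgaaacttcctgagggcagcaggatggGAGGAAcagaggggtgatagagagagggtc
C1qc (chr4:136893066-136893164, minus strand): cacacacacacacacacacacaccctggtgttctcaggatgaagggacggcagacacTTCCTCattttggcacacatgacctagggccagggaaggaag
C3 (chr17:57228137-57228256, minus strand): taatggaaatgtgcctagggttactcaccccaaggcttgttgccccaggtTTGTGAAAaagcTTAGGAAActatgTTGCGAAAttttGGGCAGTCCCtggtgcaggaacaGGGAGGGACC
C7 (chr15:5063774-5063893, minus strand): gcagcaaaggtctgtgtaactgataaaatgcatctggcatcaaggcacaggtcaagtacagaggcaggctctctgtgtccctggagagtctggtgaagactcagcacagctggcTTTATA
Each of C1qb and C1qc held 1 GAGGAA match in the 250 bases before the start, beginning 30 and 193 bases before it, and C3 and C7 held none. Of all 32851 promoters of that length, 23.3% held it. C3 held 3 TTNNGNAA matches, beginning 70, 58 and 45 bases before its start, C7 held 2, C1qc 1 and C1qb none, and 36.8% of promoters held at least 1 and 2.61% held 3 or more. TATAAA was matched in C7, 6 bases before its start, and in 12.4% of promoters. The kappaB motif was matched 4 times in C3, 2 times each in C1qb and C1qc and not in C7, with a pair of overlapping matches in each of the 3 genes, and 45.8% of promoters held it. TTCNNNGAA was matched 1 time, in C7, and in 7.02% of promoters. The C1qc matches to TTNNGNAA and the kappaB motif lie in the 151 bases left out, inside the GENCODE gene. All are matches of letters in a window, not sites shown to be bound.

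The members split by cell class into 2 groups. C1qa, C1qb and C1qc were highest in interstitial macrophages, the resident macrophages outside the airspace, and C2, C4b, C3, Cfb, C7 and Serping1 were highest in mesothelial cells (the lining of the lung surface) or fibroblasts. Over the 27 classes with at least 20 cells in every library, the pairwise correlations of log2(mean level + 1) were 0.992 to 0.995 among the 3 C1q genes. Between a C1q gene and a stromal member they ran from -0.244 to 0.238. These are descriptions across classes that share libraries and free RNA, and mesothelial cells were not among the 27.

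**Figure D1:**
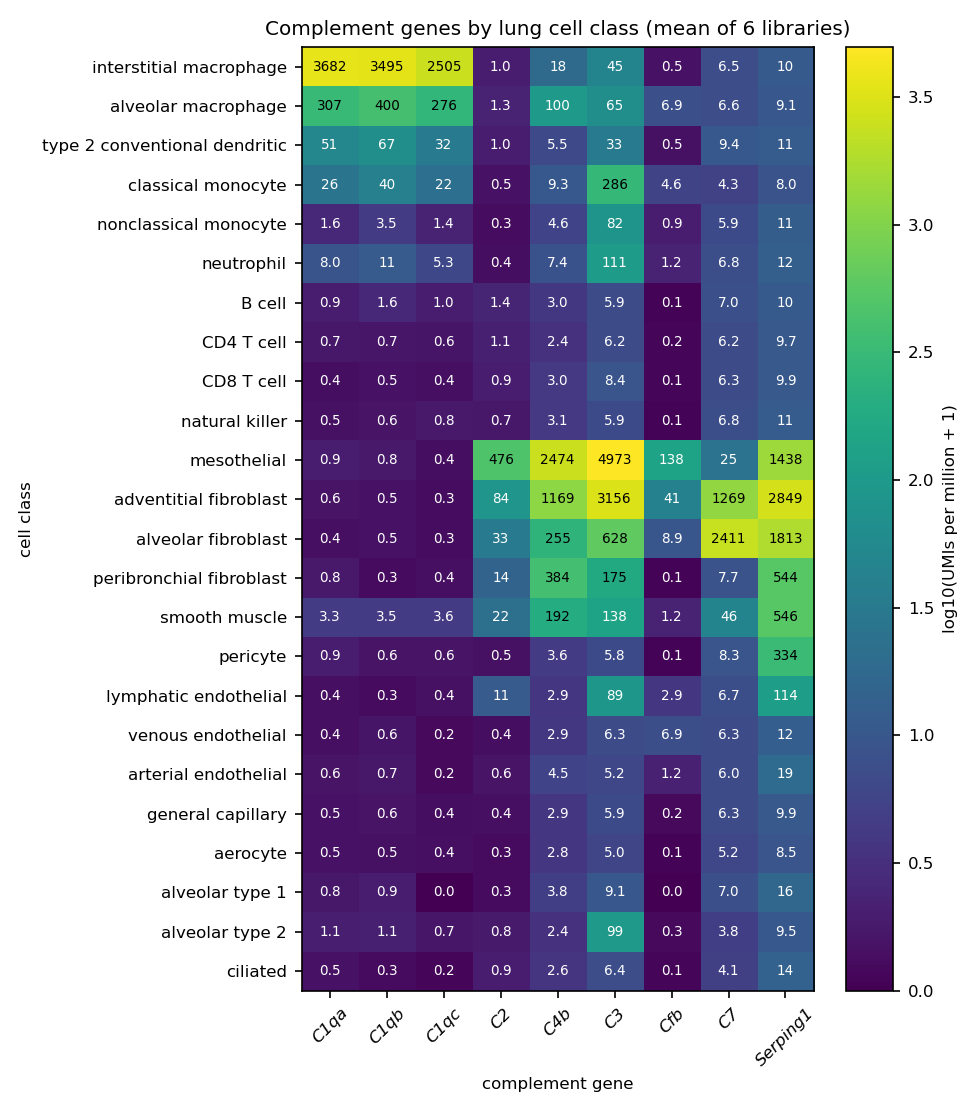
Mean level over the 6 libraries (UPM, numbers in the cells; colour on a log10 scale) of the 9 complement genes (columns) in 24 cell classes (rows). The C1q genes are brightest in interstitial macrophages, at 2505 to 3682, and the other 6 genes in mesothelial cells and fibroblasts.

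In interstitial macrophages C1qa stood at 4308, 3175 and 3710 UPM in the p16-DTR-labelled libraries and at 3136, 4438 and 3325 in the controls. No other class reached these values: alveolar macrophages, the next class, averaged 307 ± 249 (SD, n = 6) and ranged from 4.42 to 684 between libraries. Type 2 conventional dendritic cells averaged 51.0 ± 28.9 and classical monocytes 25.7 ± 20.3, and these ranges overlapped with each other and with alveolar macrophages. C1qb averaged 3495 ± 410 and C1qc 2505 ± 431 in interstitial macrophages, with the same next 3 classes in the same order. The alveolar macrophage class rests on 235 shallow cells, with a median of 3472 UMIs, and proliferating cells held 134 C1qa UPM in control replicate 1 and 0 to 1.06 in the other 5 libraries.

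The ratio of UMIs captured from the 3 chains, which is not a ratio of RNA levels, varied little between libraries. In interstitial macrophages there were 0.849 to 1.00 C1qb UMIs and 0.653 to 0.730 C1qc UMIs for each C1qa UMI across the 6 libraries. Cells with at least 5000 UMIs were thinned to 5000, and shallower cells were left out of all shares after thinning. This kept 4564 of 5366 B cells and 435 of 446 interstitial macrophages. Of these macrophages, 97.7% ± 1.9 held a C1qa UMI, 98.7% ± 1.3 a C1qb UMI and 97.3% ± 2.0 a C1qc UMI. In B cells, which should lack C1q, these shares were 0.222% ± 0.164 for C1qa, 0.550% ± 0.422 for C1qb and 0.251% ± 0.242 for C1qc, and without thinning 97.9% of interstitial macrophages and 0.641% of B cells held a C1qa UMI. The median depths were 22545 and 12790.5 UMIs per cell.

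Interstitial macrophages held 78.3% of all UMIs of the 3 C1q genes, although they were 446 of 85386 retained cells. Classical monocytes held 4.68% and alveolar macrophages 3.11%. A further 5.46% came from an unnamed cluster of 119 retained cells led by C1qa, C1qb and Ccl2. It stayed unnamed because 69.1% of its cells were predicted doublets.

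Between groups, the C1q levels separated over all cells and overlapped within interstitial macrophages. Over all retained cells C1qa stood at 28.0, 41.4 and 67.5 UPM in the p16-DTR-labelled libraries and at 15.5, 22.7 and 19.4 in the controls. Every p16-DTR-labelled library was above every control, and so it was for C1qb and C1qc. The log2 fold change was 1.30 ± 0.32 (SE) for C1qa, 1.38 ± 0.29 for C1qb and 1.39 ± 0.34 for C1qc, with edgeR adjusted p of 0.132, 0.129 and 0.131 over 21399 genes. None of the 9 members was called by edgeR at an adjusted p under 0.05, where 0% of all genes were called. At an unadjusted p under 0.05 the 3 C1q genes passed, as 23.3% of all genes did. DESeq2 called the same 3 genes (adjusted p 0.00197, 0.000263 and 0.00157) and 12.6% of all genes. The exact two-sided permutation test gave p = 0.1 for each, the smallest value that 3 against 3 allows.

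Interstitial macrophages were also a larger share of cells in those libraries. They numbered 52, 105 and 157 in the p16-DTR-labelled libraries and 44, 43 and 45 in the controls, or 0.737% ± 0.359 against 0.310% ± 0.035 of retained cells (SD, n = 3 each; exact two-sided permutation p = 0.1, adjusted 0.2 over 4 such comparisons). Within the class the summed level of the 3 genes was 9943 ± 1458 against 9422 ± 1581 UPM (exact permutation p = 0.7, adjusted 0.7), and the libraries overlapped. The fits there gave log2 fold changes of 0.04 ± 0.17 for C1qa, 0.12 ± 0.14 for C1qb and 0.08 ± 0.18 for C1qc, with edgeR adjusted p of 0.987, 0.914 and 0.966. These p-values do not show that the levels were equal. The class had fewer than 50 cells in each control, so it entered the fits through a lower minimum of 20 cells per library that was chosen after the cell numbers were seen. Its 7 marker genes summed to 2520 to 2720 UPM in the p16-DTR-labelled libraries and to 2136 to 3057 in the controls.

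**Figure D2:**
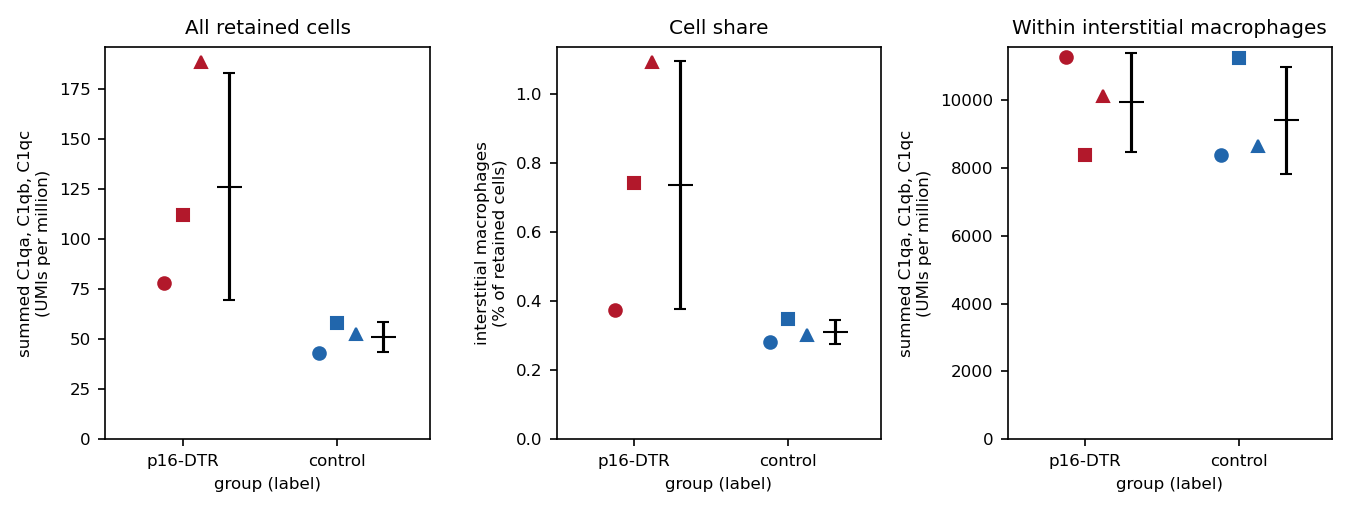
Left, summed C1qa, C1qb and C1qc level over all retained cells (UPM); middle, interstitial macrophages as a percentage of retained cells; right, the summed level within interstitial macrophages. Circles, squares and triangles are replicates 1, 2 and 3, and bars are the mean ± SD of 3 libraries: the groups separate in the left and middle panels and overlap in the right one, at 8400 to 11298 against 8376 to 11240.

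C1qa levels also stood apart outside the macrophage classes. With both macrophage classes and the unnamed C1q cluster left out, C1qa was 4.63, 5.34 and 5.30 UPM against 2.77, 1.77 and 2.07 in the controls, or 1.25 ± 0.18 higher on the log2 scale (edgeR adjusted p = 0.134). Classical monocytes held 33.2, 57.4 and 35.2 C1qa UPM against 15.9, 0.976 and 11.3, without overlap, but the change of 2.19 ± 0.56 on the log2 scale was not called (edgeR adjusted p = 0.242). The 7 interstitial macrophage markers moved the same way in classical monocytes, at 124, 177 and 123 against 101, 84.3 and 96.3 UPM, and the 8 alveolar macrophage markers stood at 550 to 921 against 320 to 469. Their part in the C1q level of monocytes was not tested.

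Of 103 tests of a member within the 20 classes with at least 50 cells in every library, 1 passed an edgeR adjusted p under 0.05. Over all genes of those classes 0.691% of tests passed. By class, the share of genes called was 2.79% in venous, 1.81% in general capillary, 1.12% in arterial and 0.465% in lymphatic endothelial cells, 1.09% in aerocytes, 1.51% in alveolar and in peribronchial fibroblasts and 0.196% in pericytes. It was 1.31% in natural killer cells, 1.07% in CD4 T, 0.00852% in CD8 T and 0.016% in B cells, 0.0172% in alveolar type 2 and 0.0247% in ciliated cells, and 0% in the other 6 of the 20 classes. The member that passed was C1qb in alveolar fibroblasts, with 0.628, 0.762 and 0.914 UPM in the p16-DTR-labelled libraries and 0.278, 0.301 and 0.348 in the controls. The log2 fold change was 1.33 ± 0.23 (edgeR adjusted p = 0.0475). These levels rest on 17 to 49 UMIs per library, and they lie within the range of C1qb in B cells, which held 1.00, 1.13 and 2.06 UPM against 0.162, 4.32 and 0.656. In alveolar fibroblasts the interstitial macrophage markers stood at 5.37 to 6.66 UPM in the p16-DTR-labelled libraries and 9.08 to 14.4 in the controls. The same markers stood at 55.2 to 66.6 UPM in general capillary cells, where C1qb averaged 0.831 against 0.355. Their sum outside macrophages therefore need not measure macrophage RNA, whose part in the C1qb level of fibroblasts was not tested. The call was lost with predicted doublets kept (edgeR adjusted p = 0.0562) and when p16-DTR replicate 2 or 3 or control replicate 1, 2 or 3 was left out (highest adjusted p 0.169).

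Within these classes edgeR called no other test of a C1q gene. The nearest was C1qa in general capillary cells, at 0.787 ± 0.355 against 0.255 ± 0.049 UPM (log2 fold change 1.67 ± 0.39, edgeR adjusted p = 0.0659; DESeq2 0.0201). B cells, which should lack C1q, held 0.334, 0.729 and 0.708 UPM of C1qa against 0.324, 2.93 and 0.328, and the ranges of B cells and capillary cells (0.209 to 1.20) overlap.

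C4b and C2, which together make the classical C3-cleaving enzyme, shared their first 2 classes and parted after them. Mesothelial cells led for both, with C4b at 2474 ± 1383 and C2 at 476 ± 204 UPM (SD, n = 6), followed by adventitial fibroblasts, the cells around large vessels and airways, at 1169 ± 120 and 84.1 ± 11.4. For C2 these classes did not overlap. For C4b they overlapped through 1 library, p16-DTR replicate 1, whose 14 mesothelial cells held 85.4 C4b UPM against 1728 to 3936 in the other 5 libraries. That library's 6 mesothelial markers were low too, at 1299 against 4407 to 6851, and the other 5 libraries stood above every adventitial value, of 983 to 1312. Peribronchial fibroblasts then held more C4b than alveolar fibroblasts in every library, 384 ± 57 against 255 ± 8, whereas C2 was higher in alveolar (32.6 ± 2.2) than in peribronchial fibroblasts (13.9 ± 1.8). Smooth muscle held 192 ± 67 for C4b and 22.5 ± 11.4 for C2. Its range overlapped with both fibroblast classes for C2, and for C4b through p16-DTR replicate 1 alone, at 325.

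After thinning, 83.8% ± 3.1 of adventitial fibroblasts, 71.4% ± 4.2 of peribronchial and 43.5% ± 2.0 of alveolar fibroblasts held a C4b UMI, against 1.497% ± 0.468 of B cells. For C2 the shares were 75.0% ± 18.2 of mesothelial cells, 28.1% ± 4.4 of adventitial and 13.1% ± 0.7 of alveolar fibroblasts, against 0.497% ± 0.416 of B cells. Unthinned, the adventitial shares rose to 94.7% for C4b and 63.0% for C2, at a median of 31703 UMIs per adventitial cell, and those of B cells to 3.92% and 1.75%.

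C3, on which the pathways converge, reached a mean of 100 UPM over the 6 libraries in 5 of the 20 classes and of 10 in 4 more. It averaged 4973 ± 1214 UPM in mesothelial cells, 3156 ± 334 in adventitial and 628 ± 49 in alveolar fibroblasts. Mesothelial and adventitial values overlapped by range, but mesothelial cells were higher in 6 of 6 libraries. Classical monocytes came next at 286 ± 39, above peribronchial fibroblasts (175 ± 53) in every library. Smooth muscle ranged from 28.8 to 429. Neutrophils held 111 ± 9, alveolar type 2 cells, which make surfactant, 98.7 ± 17.3, lymphatic endothelial cells 88.8, and nonclassical monocytes 81.9. B cells held 5.88 ± 2.81. After thinning, 68.3% ± 6.0 of classical monocytes held a C3 UMI, against 3.13% ± 1.43 of B cells.

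Cfb, the enzyme subunit of the alternative pathway, shared its first 3 classes with C3. Mesothelial cells averaged 138 ± 68 UPM, adventitial fibroblasts 41.4 ± 3.3 and alveolar fibroblasts 8.89 ± 0.78, and the last 2 did not overlap. Venous endothelial cells held 6.86 ± 1.28, where the other endothelial classes of blood vessels averaged 0.0742 to 1.16. Alveolar macrophages (6.88 ± 4.67) and classical monocytes (4.65 ± 1.74) overlapped with venous cells. The share of venous cells with a Cfb UMI was 3.65% ± 0.74 after thinning, against 0 of 4564 B cells, which allows up to 0.0657% at that depth. Without thinning the shares were 10.4% and 0.118%.

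The mean of C7 over the 6 libraries passed 100 UPM in 2 of the 20 classes and stayed under 10 in the other 18. Some single libraries of these 18 passed 10, as in type 2 conventional dendritic cells (20.6). Alveolar fibroblasts held 2350, 2005 and 2489 UPM in the p16-DTR-labelled libraries and 2628, 2501 and 2493 in the controls. Adventitial fibroblasts held 1269 ± 177, and no library of these classes overlapped with the other. The next class, smooth muscle, ranged from 9.97 to 96.8. Alveolar fibroblasts gave 88.0% of all C7 UMIs, and 98.9% ± 0.4 of these cells held a C7 UMI after thinning, against 3.38% ± 1.42 of B cells. Mesothelial cells, first for C2, C4b, C3 and Cfb, held 24.8 ± 31.9 C7 UPM, with 88.1 in control replicate 1 and 3.85 to 20.7 in the others.

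Serping1, the inhibitor of the C1 proteases, averaged 2849 ± 143 UPM in adventitial fibroblasts, 1813 ± 158 in alveolar fibroblasts and 1438 ± 451 in mesothelial cells. Smooth muscle (546 ± 116) and peribronchial fibroblasts (544 ± 30) did not differ beyond their spread. Pericytes, the mural cells of capillaries, followed at 334 ± 46 and lymphatic endothelial cells at 114 ± 23, without overlap.

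**Figure D3:**
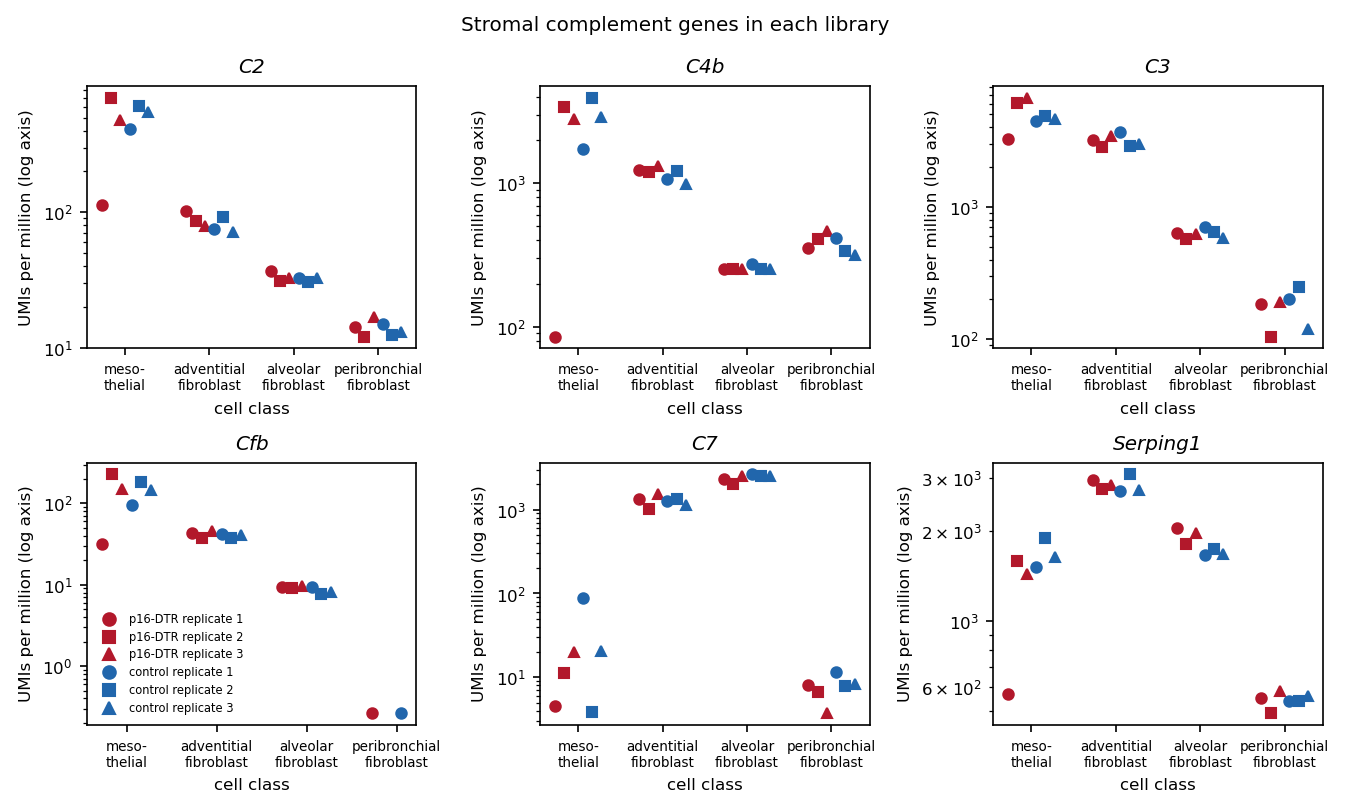
Levels (UPM, log axes) of the 6 stromal complement genes in mesothelial cells and 3 fibroblast classes; each point is 1 library, red for p16-DTR and blue for control, and values of 0 are not drawn. Adventitial and peribronchial fibroblast points of the 2 groups overlap, those of alveolar fibroblasts separate narrowly for C7 and Serping1, and the mesothelial point of p16-DTR replicate 1 (14 cells) is low for every gene but C7, where control replicate 2 is lower.

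Alveolar fibroblasts were not uniform for these genes. Their 3 clusters of full depth, of 9554, 5260 and 2642 cells, stepped up in C4b from 79.5 ± 18.5 to 248 and 868 UPM (means of 6 libraries). C3 stepped from 353 to 741 and 1331 and C2 from 14.4 to 31.8 and 95.5, whereas C7 ran from 2316 to 2500 and 2761 and Serping1 from 1706 to 1845 and 2027. The third of these clusters was led by C7 and Mmp3, a matrix protease that also led the main adventitial cluster. No alveolar fibroblast marker was among its 10 leading genes, although 6 were raised in it. The main adventitial cluster stood at 1256 for C4b and 3625 for C3, the second at 969 and 1329, and the smallest, of 147 cells with as few as 2 in a library, at 542 and 4252. In C2 (102 and 30.2) and C7 (1464 and 762) the main and the second adventitial clusters also differed. These clusters were made from the same cells, so their differences are given without a test. A further cluster of 2358 cells had a median depth 0.0677 times that of its libraries, with C7 at 942 and Serping1 at 3063.

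**Figure D4:**
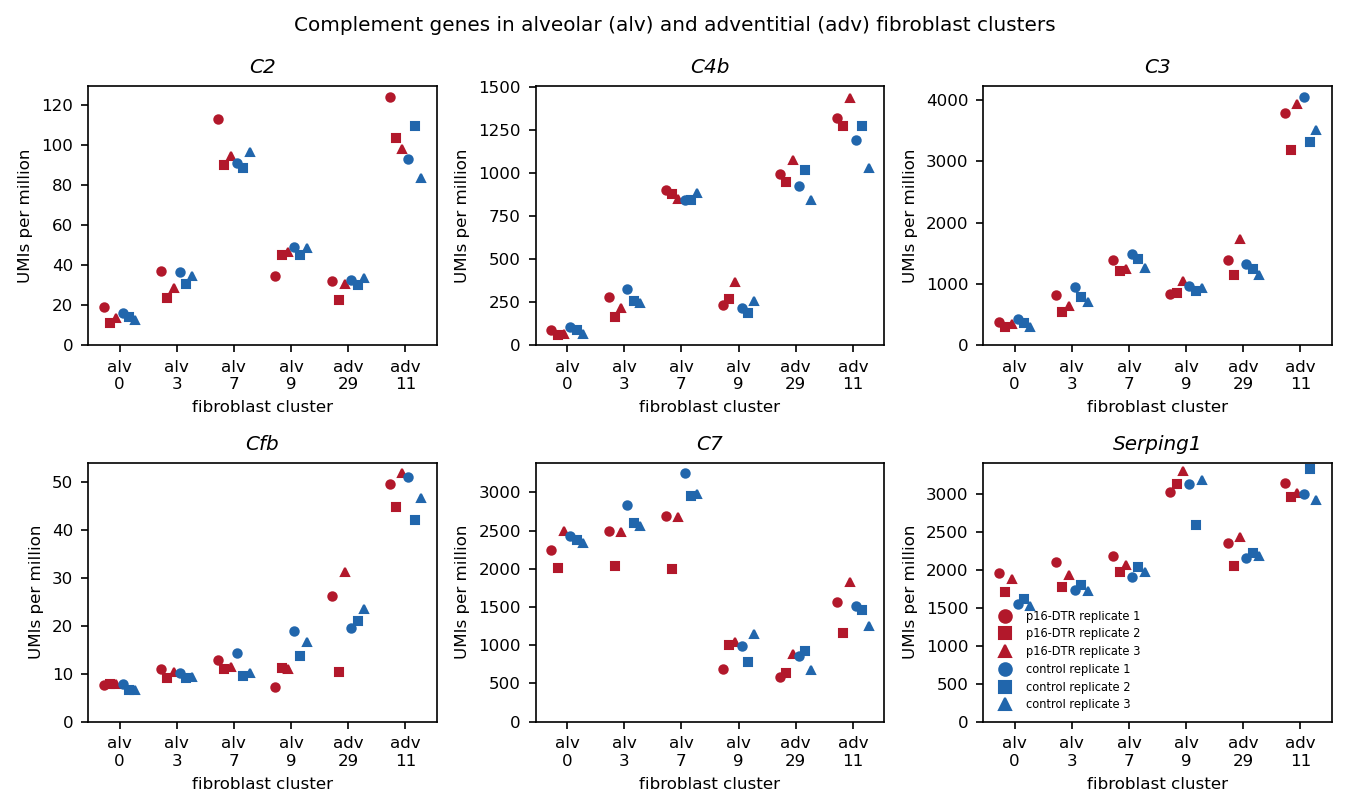
Levels (UPM) of the 6 stromal members in 4 alveolar (alv) and 2 adventitial (adv) fibroblast clusters, numbered as computed; each point is 1 library, red for p16-DTR and blue for control. C4b, C3 and C2 climb from cluster 0 to cluster 7 in every library. C7 climbs less, and not in p16-DTR replicate 2 (2006 and 2002), and cluster 9 is the shallow one.

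Within alveolar and adventitial fibroblasts, which gave most UMIs of these 6 genes, none was called between groups. In alveolar fibroblasts C4b lay between 251 and 254 in the p16-DTR-labelled libraries and between 251 and 272 in the controls, which gave -0.02 ± 0.06 on the log2 scale (edgeR adjusted p = 0.885). C7 was lower in all 3 p16-DTR-labelled libraries, the nearest pair being 2489 against 2493, with a log2 fold change of -0.14 ± 0.10 (adjusted p = 0.457), and C3 had one of -0.06 ± 0.09 (0.766) in the same edgeR fit. Serping1 was higher in all 3 p16-DTR-labelled libraries (2045, 1803 and 1959 against 1660, 1741 and 1669), but its log2 fold change of 0.21 ± 0.08 did not pass (edgeR adjusted p = 0.192). In adventitial fibroblasts the 6 log2 fold changes ran from -0.0040 for C3 and -0.0012 for Serping1 to 0.20 ± 0.09 for C4b, with an edgeR adjusted p of 0.380 for C4b. Mesothelial cells numbered 14, 48 and 38 in the p16-DTR-labelled libraries and 127, 52 and 74 in the controls and were not tested, since 1 library held fewer than the minimum of 20.

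Over all retained cells the group means of all 6 stromal members were below those of the controls, and none was called. C7 stood at 689, 535 and 568 UPM against 1110, 693 and 726, without overlap (log2 fold change -0.45 ± 0.21, edgeR adjusted p = 0.253; exact two-sided permutation p = 0.1). C4b stood at 141, 147 and 119 against 240, 150 and 152, also without overlap (-0.37 ± 0.20, adjusted p = 0.312). Fibroblasts gave 31.2, 28.8 and 23.8% of the UMIs of the p16-DTR-labelled libraries and 47.3, 29.8 and 32.2% of those of the controls. They numbered 3700, 3242 and 2689 of 13854, 14139 and 14373 retained cells, against 6318, 3052 and 4021 of 15713, 12323 and 14984. Such sums alone do not separate fewer fibroblasts from less RNA per fibroblast, and the part of each was not tested. With control replicate 1 left out, the log2 fold changes over all cells were -0.19 for C7, -0.095 for C4b, -0.098 for C2, -0.055 for C3, 0.048 for Cfb and 0.016 for Serping1, nearer to 0 or past it.

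Classes with little of a stromal gene of their own showed a faint, parallel level of it. The median over B, CD4 T, CD8 T and natural killer cells was 11.1 C7 UPM in control replicate 1 and 5.02 to 6.23 in the other 5 libraries. For C3 it was 10.7 against 3.39 to 7.85, for C4b 4.77 against 1.80 to 3.28, and for Serping1 15.5 against 7.32 to 10.1. Control replicate 1 was also the library with the largest fibroblast share of UMIs. The log2 fold change of C7 was below 0 in 16 of the 19 classes tested, that of C3 in 14 of 18, of C4b in 11 of 16 and of Serping1 in 15 of 20, and edgeR called none of them. The classes come from the same 6 libraries, so these counts are not independent, and they include the fibroblasts that make these genes. Over all genes, 48.2 to 51.6% of fold changes in a class were above 0, which is a share over genes and not over classes. The part that RNA from fibroblasts plays in these counts was not tested.

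**Figure D5:**
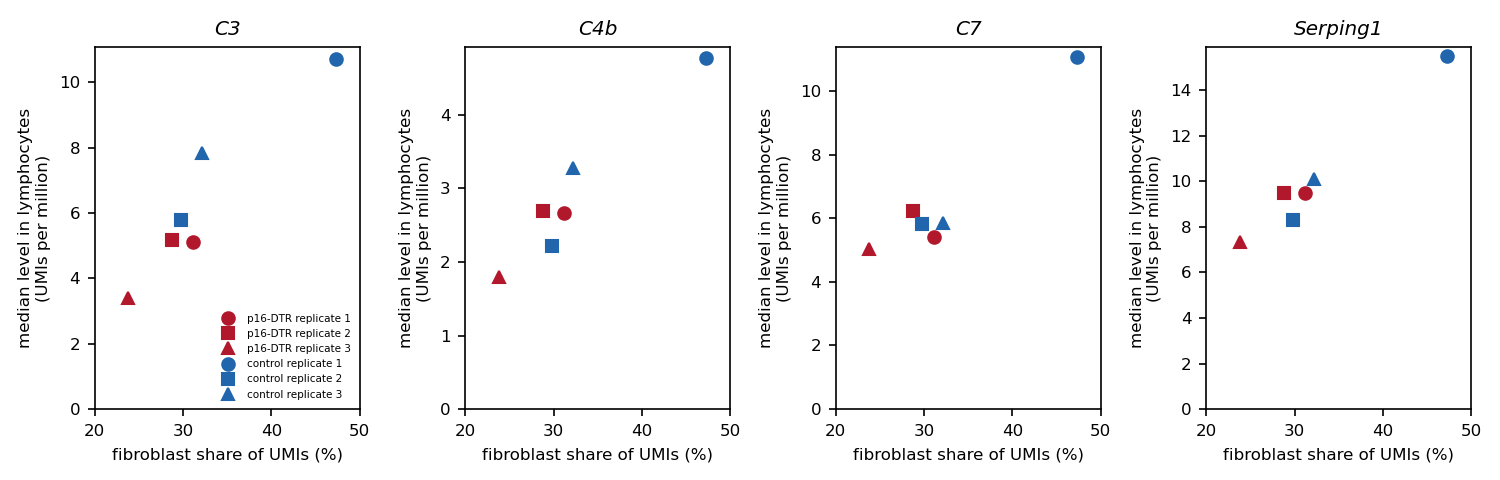
Median level over 4 lymphocyte classes (UPM, vertical axes) against the share of all UMIs that came from alveolar and adventitial fibroblasts (%, horizontal axes) for C3, C4b, C7 and Serping1; each point is 1 library. Control replicate 1, at 47.3% fibroblast UMIs, is highest for all 4 genes, and p16-DTR replicate 3, at 23.8%, is lowest.

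Among these, Serping1 in arterial endothelial cells came closest to a call, at 11.8, 15.8 and 11.8 UPM against 30.9, 19.8 and 23.5. The groups did not overlap, and the log2 fold change was -0.87 ± 0.18 (edgeR adjusted p = 0.0652; DESeq2 0.00419). It passed when control replicate 2 was left out (adjusted p = 0.0239) and in no other such fit (up to 0.218). The 6 adventitial fibroblast markers stood in arterial cells at 20.7, 32.9 and 24.0 against 38.8, 18.2 and 43.7 UPM. The 7 alveolar fibroblast markers stood there at 30.4 to 51.0 against 47.1 to 78.5 UPM in the controls. The B cell level of Serping1 was 8.70 ± 1.64 against 11.9 ± 4.2. The part of fibroblast RNA in the arterial Serping1 level was not tested. Cfb in classical monocytes, at 6.00 ± 0.97 against 3.30 ± 1.06 UPM, was 0.91 ± 0.24 higher on the log2 scale (edgeR adjusted p = 0.252) and did not overlap either. In all, 28 of the 103 member tests had an unadjusted p under 0.05, where 13.9% of all tests did, and DESeq2 called 3 (2.47% of all its tests): C1qb in alveolar fibroblasts, C1qa in general capillary cells and Serping1 in arterial cells. The median log2 fold change of the 103 tests was -0.16. Of 21 member tests in the 7 classes with 20 to 49 cells in some library, none was called by edgeR or DESeq2 and none had an unadjusted p under 0.05. Of all genes there 0.00694% were called, with 0.0246% in plasma cells, 0.0204% in type 1 conventional dendritic cells and 0% in the other 5.

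The genes whose class profile was most like that of each member were read over 27 classes and 14505 genes. These classes leave out mesothelial cells, the highest class of C2, C4b, C3 and Cfb. For C1qa and C1qc they were the other 2 chains and C3ar1, the receptor of the C3a fragment (Pearson r 0.976 to 0.995), and for C1qb the other chains and Ms4a7 (0.969), itself a marker used to name the macrophage class. C7 was matched by Dpep1 (0.990), Inmt (0.988) and Cdh11 (0.985), of which Inmt is a marker used to name alveolar fibroblasts. Serping1 was matched by Fxyd1 (0.973), Nox4 (0.972) and Gas1 (0.965). C2 was closest to Sec16b (0.952), Adamts15 (0.939) and Osr1 (0.932), and C4b to Htra3 (0.937), Larp6 (0.934) and Timp1 (0.924). C3 had looser matches in Tnfaip6 (0.839), Il6 (0.828) and Abca6 (0.827), and Cfb in Ahsg (0.797) and Colec12 (0.765).

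Of the other 50 listed genes of the pathway, levels are given here for a few that were chosen after their values were seen. C1ra and C1s1, the proteases bound to C1q, were highest in mesothelial cells and adventitial fibroblasts, at 466 and 459 UPM for C1ra and 547 and 622 for C1s1. Hc, which encodes C5, stood at 3007 and C6 at 317 in alveolar type 2 cells, their highest class. Among receptors, C3ar1 was highest in interstitial macrophages at 256, C5ar1 in neutrophils at 667 and Cr2 in B cells at 153, whereas Scarf1 was highest in lymphatic endothelial cells at 112 and Megf10 in peribronchial fibroblasts at 63.4.

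Of 343 tests of these 50 genes in the 20 classes, edgeR called 7 and DESeq2 21, and 66 had an unadjusted p below 0.05. Over all genes of these classes the shares were 0.691%, 2.47% and 13.9%. The median log2 fold change of the 343 tests was 0.00, and within a class the median over all genes tested lay between -0.01 and 0.01. By role, 2 of 59 tests of initiation genes, 3 of 162 of inhibitors, 2 of 90 of receptors, 0 of 14 of convertase genes and 0 of 18 of terminal genes were called.

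Colec12, a scavenger collectin, fell in arterial endothelial cells, from 56.5 ± 19.6 to 17.7 ± 1.9 UPM (log2 fold change -1.63 ± 0.25, edgeR adjusted p = 0.0379). It also fell in lymphatic endothelial cells, from 334 ± 13 to 205 ± 13 (-0.72 ± 0.09, 0.0112 by edgeR). Thbd (thrombomodulin) rose in lymphatic endothelial cells, at 192 ± 24 against 117 ± 13 (0.71 ± 0.12, edgeR adjusted p = 0.0313). Clu (clusterin), an inhibitor of the terminal complex, rose in venous endothelial cells, at 109 ± 8 against 68.5 ± 10.9 (0.70 ± 0.12, 0.0150 by edgeR). In natural killer cells Cd55, which speeds the decay of C3-cleaving enzymes, fell from 81.8 ± 30.4 to 37.2 ± 9.9 (-1.14 ± 0.22, 0.0236 by edgeR). The integrin subunit Itgax, part of complement receptor 4, fell there from 170 ± 10 to 123 ± 12 (-0.47 ± 0.10, 0.0315 by edgeR). Megf10, an engulfment receptor, fell in peribronchial fibroblasts from 77.1 ± 3.3 to 49.7 ± 7.1 (-0.59 ± 0.12, edgeR adjusted p = 0.0432).

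Each of these 7 calls was lost without some single library, and some under other settings. With cells gated one by one, edgeR adjusted p was 0.120 for Colec12 in arterial cells, 0.0819 for Thbd, 0.0789 for Cd55 and 0.0671 for Itgax. At Leiden resolution 0.8 it was 0.0593 for Cd55 and 0.0666 for Itgax, and with doublets kept Megf10 fell just short of the threshold (0.05004). Adjusted edgeR p for Colec12 in arterial cells passed without control replicate 2 (0.000834) and ran from 0.0541 to 0.154 without each other library. In lymphatic cells that of Colec12 was 0.0771 without control replicate 1 and 0.0557 without control replicate 2, and that of Thbd was 0.0666 without p16-DTR replicate 2 and 0.161, 0.147 and 0.0838 without control replicates 1, 2 and 3. Clu in venous cells was lost without p16-DTR replicate 3 (0.0696). Cd55 passed without p16-DTR replicate 2 or control replicate 2 and reached 0.123 without p16-DTR replicate 3, 0.0921 without control replicate 1, 0.0914 without p16-DTR replicate 1 and 0.0909 without control replicate 3. Itgax passed in none of the 6 fits (0.0644 to 0.104), and Megf10 passed without p16-DTR replicate 1 (0.0186) and ran from 0.0637 to 0.157 without each other library. Colec12 was highest in alveolar fibroblasts, at 1191 UPM, and the 7 alveolar fibroblast markers stood in arterial cells at 30.4 to 51.0 against 47.1 to 78.5 in the controls. Their part in the arterial level was not tested.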

How the data were processed

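Per the file headers and the submitters' processing notes, each deposited matrix gives UMI counts, not normalized, for every gene and barcode, from Cell Ranger 8.0.1 and mm10. Barcodes with at least 500 UMIs, 300 genes and at most 15% mitochondrial UMIs were kept, predicted doublets left out (0.4% per 1000 barcodes), and cells clustered (Leiden, resolution 1.5, leidenalg 0.10.2) and named from markers of 38 classes. Levels are UMIs per 1000000 (UPM), from counts summed per library and class. Groups were compared on the summed counts with edgeR 4.0.16 (quasi-likelihood, filterByExpr, TMM, group alone) and, as an alternative, DESeq2 1.42.0, with Benjamini-Hochberg adjustment over all genes of a class and a threshold of 0.05. The edgeR code was tested on simulated data. The replicate is the mouse. Intervals and limits from counts of 0 (3 counts) cover counting error only. Class-by-group interactions could not be fitted for C1qb, which was tested in no other mesenchymal class. Named were the 9 members, called genes of the pathway list (at most 8 per class) and, for each member, the 3 genes with the highest correlation. Some items that this rule or the pathway list gives are not reported here. Positions come from GENCODE M21. The members and lists were chosen with earlier results of these data known. C4a was not analysed here.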

Additional observations from a re-analysis of the deposited data

How the results depend on the processing

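Over all retained cells the count of called members was 0 under each edgeR setting run and 3 by DESeq2. Within classes it was 1, and 3 by DESeq2, 12 with no filter on low counts (more tests on few counts), 2 with cells gated one by one, 0 with doublets kept and 0 to 1 with 1 library left out. For the pathway list it was 7, and 21 by DESeq2, 31 with no filter, 6 to 8 under the other settings and 1 to 7 with 1 library left out (1 without control replicate 1, 2 without control replicate 3 or p16-DTR replicate 3, 3 without p16-DTR replicate 2). With the replicate number as a block the member count within classes was 0, and 5 of the 7 list calls stayed among 7. Deviations of same-numbered libraries correlated at 0.118, 0.00157 and 0.108 over 21399 genes. Replicates 1 and 3 of p16-DTR correlated best with the same-numbered control, and p16-DTR replicate 2 with control replicate 3 (0.0501). Correlations this small do not settle whether the numbers pair the libraries. Log2 fold changes near 0 changed sign: gated one by one, C1qa in interstitial macrophages gave -0.014, C3 in alveolar fibroblasts 0.024, and in adventitial fibroblasts Cfb -0.031 and C7 -0.011. In adventitial fibroblasts the block gave 0.000507 for C3 and 0.000371 for Serping1, doublets kept 0.00936 and 0.0125, and for Serping1 the stricter cell filter 0.00018 and Leiden resolution 0.8 0.00556. With 1 library left out, ranges crossing 0 among members over all cells, C1q genes in interstitial macrophages and the 6 stromal genes in these fibroblasts were -0.41 to 0.048 for Cfb and -0.35 to 0.016 for Serping1 over all cells, -0.10 to 0.19 for C1qa and -0.047 to 0.25 for C1qc in interstitial macrophages, -0.042 to 0.022 for C4b and -0.13 to 0.019 for C3 in alveolar fibroblasts, and -0.071 to 0.12 for C3, -0.079 to 0.21 for C7 and -0.033 to 0.060 for Serping1 in adventitial fibroblasts. The cause of these changes was not tested. Few cells limit macrophages and mesothelial cells, and few UMIs the C1q levels outside macrophages. Low-UMI clusters, the lower cell minimum and macrophages left out were settings chosen after seeing the data.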
